A study of Mus musculus with 2931 samples.

Results

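The protease inhibitor gene Serpine2 and 3 genes of the plasminogen activator system, Plat, Plau and Plaur, were followed through the endothelial cells (EC) of the mouse lung. They were taken by symbol from the 18072 genes of the count table, and all 4 were found. The 4 were selected on values of these data: Serpine2 had been seen to be higher under hyperoxia in Car4- capillaries, so that contrast is described here without a test. RNA was measured in 2931 single cells sorted from distal lung, from 10 mice. The groups in normal air were embryonic day E18.5 and the postnatal days P1, P7 and P21, and a further group at P7 had been treated with hyperoxia, an atmosphere with raised oxygen. Each group held 1 female and 1 male mouse, and the strain and the oxygen level are not given in the sources used here. It is likewise not given if each named mouse is 1 animal or pooled animals, so that p-values measure the spread between these 10 names. Cells carried 10 subtype labels of the authors, of which Early and Late Car4- capillaries are pooled below unless named.

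Plasmin, the protease that dissolves fibrin and opens extracellular matrix, is cut from plasminogen by tissue plasminogen activator (Plat) and urokinase (Plau), and the receptor Plaur holds urokinase at the cell surface. Serpins stop such proteases, and the serpin Serpine2 (protease nexin) inhibits thrombin, urokinase, tissue plasminogen activator and plasmin. Endothelium is known as the main source of tissue plasminogen activator in blood.

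Positions are those of GENCODE M21 on GRCm38, given on the coordinates of that annotation. Serpine2 (ENSMUSG00000026249) spans chr1:79794197-79861180 on the minus strand, and Plaur (ENSMUSG00000046223) spans chr7:24462484-24475968 on the plus strand. Plat (ENSMUSG00000031538) spans chr8:22757727-22782844 and Plau (ENSMUSG00000021822) chr14:20836660-20843385, both on the plus strand. All 4 are protein-coding, and the values count reads over their exons. The promoters of Serpine2, the gene whose values led to the choice of the set, and of Plaur, the receptor with the highest level per length in capillaries, are shown from 250 bases before to 50 bases after the RefSeq start (GRCm38.p6). Capitals mark the GC box GGGCGG and the AP-1 motif TGACTCA, each read 5′ to 3′ on the gene's strand and searched on both strands.
Serpine2, chr1:79858616-79858915, minus strand: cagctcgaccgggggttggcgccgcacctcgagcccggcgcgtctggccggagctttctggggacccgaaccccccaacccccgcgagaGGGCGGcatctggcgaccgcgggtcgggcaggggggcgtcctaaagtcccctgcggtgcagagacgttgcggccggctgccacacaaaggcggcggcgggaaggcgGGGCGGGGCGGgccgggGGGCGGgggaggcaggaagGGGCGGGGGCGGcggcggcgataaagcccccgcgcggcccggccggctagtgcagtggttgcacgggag
Plaur, chr7:24462233-24462532, plus strand: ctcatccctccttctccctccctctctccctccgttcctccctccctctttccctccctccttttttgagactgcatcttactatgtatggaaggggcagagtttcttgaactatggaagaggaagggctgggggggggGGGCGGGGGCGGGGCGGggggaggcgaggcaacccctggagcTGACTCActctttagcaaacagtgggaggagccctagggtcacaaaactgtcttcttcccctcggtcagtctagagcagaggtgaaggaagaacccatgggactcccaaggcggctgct
The Serpine2 window is 77.7% G and C and holds 6 GC boxes, 2 of which share a base, and no AP-1 motif. The Plaur window is 59.3% G and C and holds 3 GC boxes, 2 of which share a base, and 1 AP-1 motif. Of 32851 RefSeq promoter windows of that length, 35.7% hold a GC box and 5.20% an AP-1 motif, so the former is common and the latter is not. Plat and Plau are named only.

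Reads were summed over the cells of a subtype in a mouse where it had at least 8 such cells, and levels are CPM, the gene's reads scaled to the total reads of the sum. The table held 2062278606 reads, with 42095 in the shallowest cell, 621406 in the median cell and 2967985 in the deepest. The male mouse of P7 in normal air was shallowest, with a median of 188610 reads a cell, and the other 9 mice lay between 380050 and 928377. The endothelial markers Pecam1, Cdh5, Tie1, Emcn and Egfl7 were read in every sum, at a summed level of 3629 to 10154 CPM, as the label of endothelium calls for. Among runs with at least 8 cells of a subtype, hyperoxia and normal air at P7 shared one for the male mice alone. No run held that many cells of both P1 and P7, so that run and age cannot be told apart in that step.

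Across the subtypes in normal air, the inhibitor and the activators had their highest medians over mice in different vessels. These were venous EC for Serpine2, arterial EC I for Plat, lymphatic EC for Plau and Car4+ capillaries for Plaur. The last are the thin capillary cells that lie against the alveoli. The median level of Serpine2 was 327 CPM in venous EC (7 mice), 97.4 CPM in lymphatic EC (3 mice), 63.2 CPM in arterial EC I (5 mice) and 45.7 CPM in proliferative EC (6 mice). It was 33.4 CPM in nonproliferative embryonic EC (2 mice), 12.9 CPM in Car4- capillaries (7 mice) and 1.90 CPM in Car4+ capillaries (6 mice). Each neighbouring pair in this order overlapped in the levels of single mice. The 3 lymphatic sums were of E18.5 and P1 alone, so these medians cover different ages. In both mice of P1, lymphatic EC were above venous EC (158 and 73.2 against 66.5 and 31.7 CPM). In the male of E18.5 they were below (97.4 against 444 CPM). At P7, 1 and 5 lymphatic cells held 761 and 497 CPM, beside 579 and 353 CPM in venous EC. In venous EC the lowest mouse had 31.7 CPM and the highest 579 CPM, and in Car4- capillaries they had 0.157 and 32.4 CPM. Within a mouse, venous EC were above Car4- capillaries in 6 of 6 mice. In the model of all normal-air sums with the mouse as a term, the difference was 3.94 on the log2 scale (SE 0.998) and passed the threshold (adjusted p = 0.0407 by edgeR's quasi-likelihood test with Benjamini-Hochberg adjustment). Serpine2 was the only one of the 4 genes called there, where 1.4% of 16049 genes were called. The call was lost without 7 of the 8 normal-air mice in turn (adjusted p from 0.0685 to 0.107), and with the compared pair of subtypes alone (adjusted p = 0.163). This fit shares the P7 sums of Car4- capillaries in normal air with the contrast that chose Serpine2. The fit and the within-mouse counts also take in the Car4- sum of the E18.5 female. It came from 13 cells with 1 read of Serpine2 and none of Plat, Plau or Plaur. This mouse is the exception below for Plat in venous EC, Plaur in arterial EC I and both genes in proliferative EC.

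**Figure D1:**
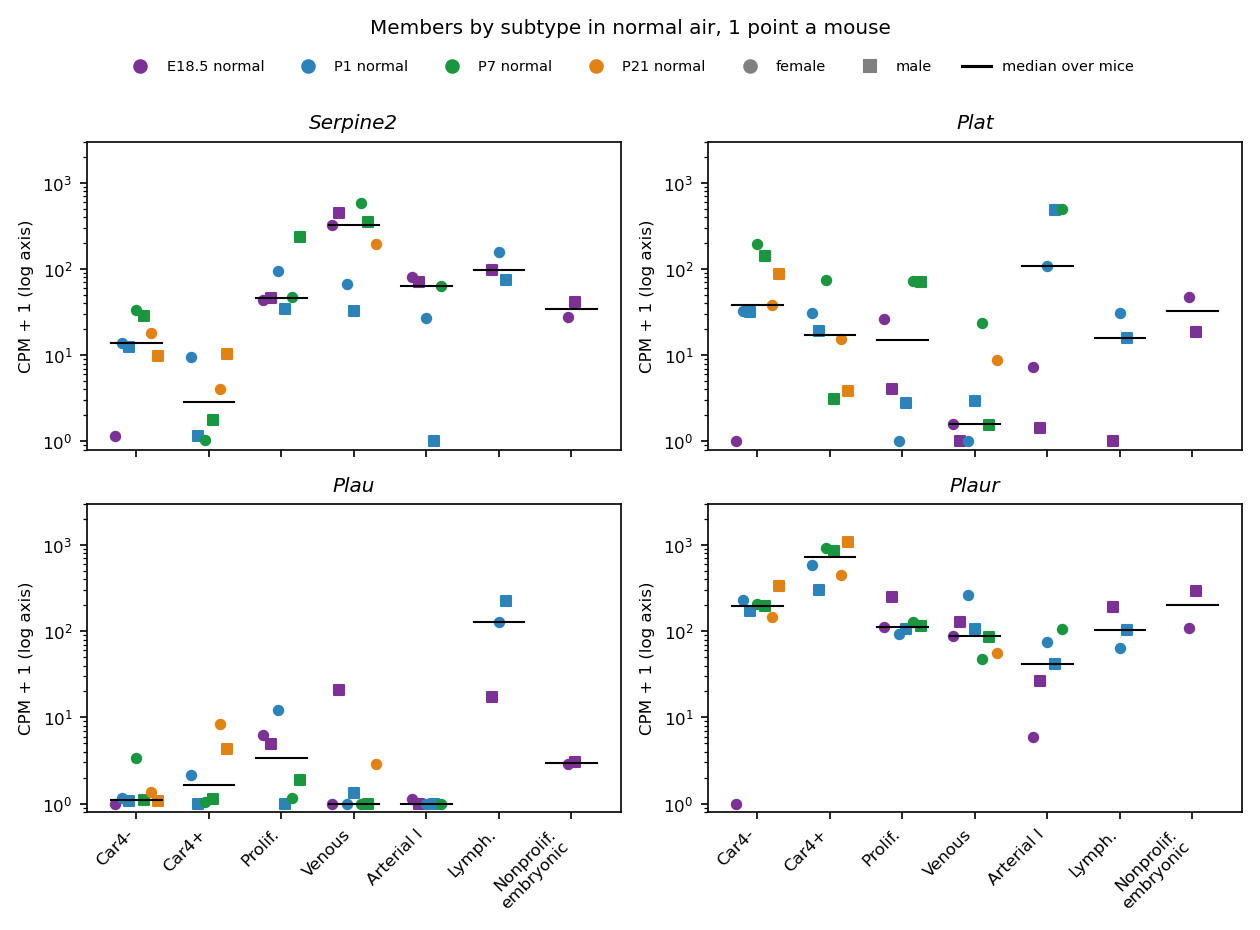
Level of each gene (CPM + 1, log axis) by subtype in normal air, with 1 point a mouse for sums of at least 8 cells, the colour giving the age, the shape the sex and the bar the median over mice. By the median over mice, Serpine2 stood highest in venous EC (327 CPM), Plat in arterial EC I (108 CPM), Plau in lymphatic EC (128 CPM) and Plaur in Car4+ capillaries (718 CPM). The lymphatic sums are of E18.5 and P1 alone.

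The other subtypes differed from Car4- capillaries in Serpine2 by amounts that did not pass the test. Proliferative EC, the cells labelled as dividing, were above Car4- capillaries in 5 of 5 mice, with a log2 difference of 2.19 (SE 0.938, edgeR adjusted p = 0.521). Lymphatic EC were above them in 2 of 2 mice that had both sums (3.08, SE 1.10, adjusted p = 0.136), and arterial EC I in 3 of 4 (1.44, SE 1.09, adjusted p = 0.615). Car4+ capillaries were below Car4- capillaries in 5 of 6 mice (-2.36, SE 1.07, adjusted p = 0.330). The median share of cells with a Serpine2 read was 85.7% in venous EC, 61.5% in lymphatic EC, 29.0% in proliferative EC and 17.8% in nonproliferative embryonic EC. It was 16.7% in arterial EC I, 8.20% in Car4- and 5.77% in Car4+ capillaries, so that arterial EC I stood lower by share than by level.

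Plat, the activator that endothelium releases into blood, had its highest median in arterial EC I, at 108 CPM. Of the 5 mice, those of E18.5 had 6.38 and 0.421 CPM, those of P1 108 and 490 CPM, with 501 CPM in the female of P7, so the embryonic mice were lowest. Arterial EC II had too few cells for a sum in all but 1 mouse, and its small samples of 1 to 6 cells at P7 held 1951 and 1057 CPM. Within a mouse, arterial EC I were above Car4- capillaries in 4 of 4 mice, with a log2 difference of 1.52 (SE 1.47, edgeR adjusted p = 0.725). Venous EC were at the other end, with a median of 0.585 CPM and 22.6 CPM in the highest mouse. They were below Car4- capillaries in 5 of 6 mice (-4.28, SE 1.40, adjusted p = 0.130), and DESeq2 called this difference (adjusted p = 0.00484). Car4+ capillaries had less Plat than Car4- capillaries in 6 of 6 mice (-1.75, SE 1.32, adjusted p = 0.706). Lymphatic EC had less in 2 of 2 mice (-1.61, SE 1.73, adjusted p = 0.790), and proliferative EC less in 4 of 5, although the fitted difference was 0.42 (SE 1.49, adjusted p = 1.00). In proliferative EC this difference turned to -0.77 without the E18.5 female and to -0.58 without the E18.5 male. Serpine2 and Plat thus stood at opposite ends in veins: per length, Serpine2 had a median of 39.5 RPKM (the CPM divided by the kb of exon) in venous EC and Plat 0.0938 RPKM, against 1.56 and 5.95 RPKM in Car4- capillaries.

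Plau, which codes for urokinase, was low in blood endothelium in normal air, with 20.1 CPM in its highest sum of venous EC. Its median was 0.103 CPM in Car4- capillaries, 0.649 CPM in Car4+ capillaries, 2.40 CPM in proliferative EC and 0 in venous EC and arterial EC I. Arterial EC I held a single Plau read over the 5 mice. Lymphatic EC were the exception, with 16.04 CPM in the male of E18.5, 128 CPM in the female of P1 and 224 CPM in the male of P1. All 3 lymphatic sums lay above every sum of Car4- capillaries, the highest of which was 2.39 CPM. The fitted log2 difference was 9.21 (SE 2.81, edgeR adjusted p = 0.0651), and it was called with DESeq2, with thinned cells, with limma and with that pair of subtypes alone. In lymphatic EC, Plau had a median of 53.9 RPKM and its receptor Plaur 38.9 RPKM.

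Plaur was the most widely read of the 4 genes, and Car4+ capillaries had the most of it. Their mice had 583 and 298 CPM at P1, 920 and 853 CPM at P7 and 444 and 1073 CPM at P21, while Car4- capillaries had between 146 and 337 CPM at the same ages. Every mouse had more in Car4+ than in Car4- capillaries (6 of 6), and a read was found in 76.6% to 96.6% of Car4+ cells. The log2 difference was 2.10 (SE 0.638, edgeR adjusted p = 0.0812), which missed the threshold. It passed the threshold in 4 of 16 alternatives. These were DESeq2, thinned cells, the fit of that pair alone and the fit without the E18.5 female, which had no Car4+ sum. In the other direction, arterial EC I had a median of 40.7 CPM and were below Car4- capillaries in 3 of 4 mice (-1.86, SE 0.735, adjusted p = 0.260). Lymphatic EC were lower in 2 of 2 mice (-0.70, SE 0.889, adjusted p = 0.836) and proliferative EC in 4 of 5 (-0.18, SE 0.707, adjusted p = 1.00). Of the 4 genes, none was called in Car4+ capillaries (2.2% of genes called), arterial EC I (0.243%), proliferative EC (0.76%) or lymphatic EC (3.6%) against Car4- capillaries.

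The other genes of plasminogen activation show which partners stand beside these 4. The list holds 37 genes, 35 of them in the table, and 33 were tested between subtypes; it was written with earlier results of these data known. In venous EC, 4 of the 33 were called higher and 1 lower than in Car4- capillaries. Over all genes tested there, 1.4% were called in either direction. Beside Serpine2 the higher ones were Procr, the endothelial protein C receptor (log2 5.11, SE 1.04), Mmp2, a matrix protease that is activated from a precursor (9.42, SE 1.78), and Anxa2, which docks plasminogen and tissue plasminogen activator at the cell surface (0.96, SE 0.194). The lower one was the thrombin receptor F2rl3, with a median of 0 CPM in venous EC and 0.462 CPM in Car4- capillaries. Procr lay between 84.4 and 735 CPM in venous EC and between 0.315 and 15.96 CPM in Car4- capillaries, with no overlap. Mmp2 lay between 165 and 2210 CPM against 0 to 16.9 CPM, also with no overlap. Over the 29 tested genes of the list other than the 4, the median log2 difference in venous EC was 0.03, beside -0.25 over all genes tested.

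Car4+ capillaries had 0 list genes higher and 3 lower than Car4- capillaries. These were Procr, read at no more than 0.0856 CPM in any Car4+ sum, Anxa2 (-0.80, SE 0.200) and its partner S100a10 (-1.61, SE 0.381), which together form the docking complex. Arterial EC I had 0 called higher and 1 lower, S100a10 (-2.27, SE 0.419). Lymphatic EC had 3 called higher, the membrane protease Mmp14 (2.64, SE 0.541), Mmp2 and the receptor F2rl1, and 2 lower, the clearance receptor Igf2r (-2.52, SE 0.523) and the thrombin cofactor Thbd (-2.90, SE 0.674). Mmp14 lay between 923 and 1338 CPM in the lymphatic sums and between 15.4 and 283 CPM in Car4- capillaries. Proliferative EC had 0 of 33 called. Of all genes tested, 2.2% were called in Car4+ capillaries, 0.243% in arterial EC I, 3.6% in lymphatic EC and 0.76% in proliferative EC. The medians of the list without the 4 were -0.46 in Car4+ capillaries, -2.18 in arterial EC I, -0.33 in proliferative EC and 0.91 in lymphatic EC, beside -0.28, -0.53, -0.01 and -0.14 over all genes.

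**Figure D2:**
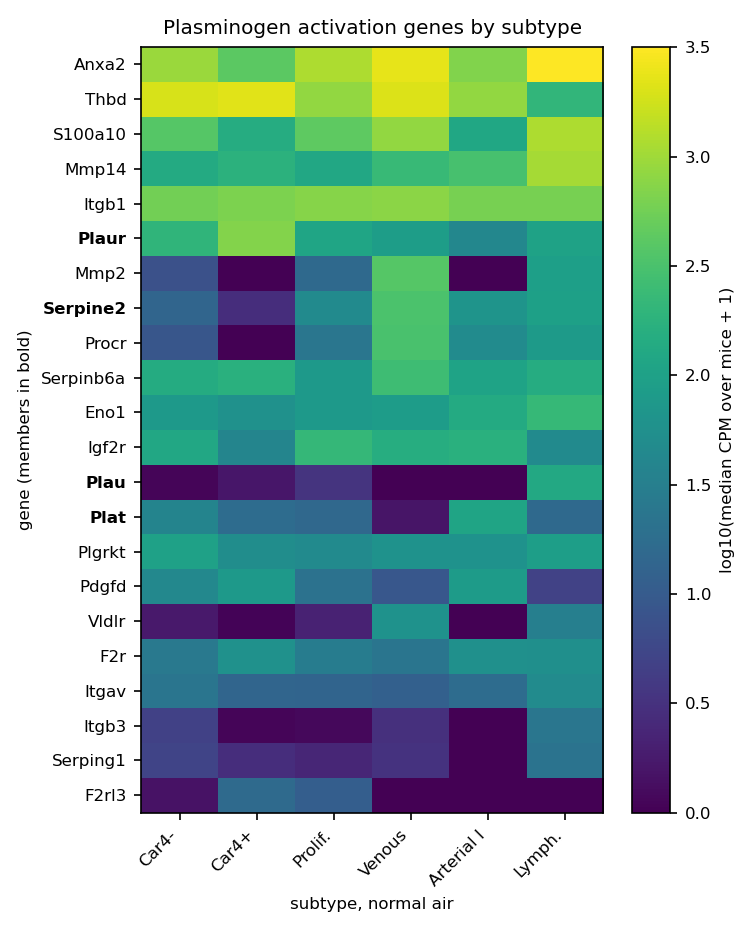
Median level over mice in normal air (colour, log10 of CPM + 1) of 22 list genes that reach 10 CPM in some subtype, with subtypes in columns and the 4 genes in bold. Serpine2, Procr and Mmp2 are brightest in venous EC, and Plaur in Car4+ capillaries.

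With age, Serpine2 in venous EC was low at birth and high before and after it. At E18.5 the female and male mice had 327 and 444 CPM, at P1 66.5 and 31.7 CPM and at P7 579 and 353 CPM. The mice of P1 were lowest, with no overlap with either neighbour. At P21 the female had 194 CPM, and the male, with 4 cells, had 125 CPM and entered no fit. The log2 change was -3.14 (SE 0.559) from E18.5 to P1 and 3.24 (SE 0.561) from P1 to P7. Neither passed edgeR's test over all genes (adjusted p = 0.159 and 0.534, unadjusted p = 0.000109 and 8.67e-05), while DESeq2 called both (9.54e-06 and 9.13e-06). None of the 4 genes was called in either step. From E18.5 to P1, 0.0162% of genes were called, and from P1 to P7 0.0%, beside 396 with an unadjusted p under 0.05, 75 called by DESeq2 and 0 by limma. The share of venous cells with a read was 90.9% in both mice of E18.5, 58.8% and 50% at P1 and 85.7% and 87.0% at P7. The female mice of E18.5 and P1 shared a sequencing run, and within it the levels were 327 and 66.5 CPM.

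Plat in Car4- capillaries was also highest at P7. The mice had 31.3 and 30.9 CPM at P1, 194 and 141 CPM at P7 and 37.1 and 85.7 CPM at P21, so both mice of P7 lay above all 4 others. The 4 arterial markers moved with the first of these steps, at a summed 715 and 477 CPM at P1 and 1442 and 1583 CPM at P7, and were 1686 and 1118 CPM at P21, with none at 0, and their part in the result was not tested. The 13 Car4- cells of the E18.5 female held no Plat read. The share of cells with a read was 18.8% and 10.7% at P1, 41.7% and 48.3% at P7 and 13.97% and 9.70% at P21. The log2 change was 2.32 from P1 to P7 (SE 0.529, edgeR adjusted p = 0.379) and -1.30 from P7 to P21 (SE 0.512, adjusted p = 0.423), and DESeq2 called the former (adjusted p = 0.00211). Serpine2 followed the same course at a lower level, with 12.9 and 11.4 CPM at P1, 32.4 and 27.3 CPM at P7 and 17.2 and 8.74 CPM at P21. Its log2 changes, which share the mice of P7 with the contrast that chose it, were 1.19 (SE 0.388, adjusted p = 0.385) and -1.11 (SE 0.387, adjusted p = 0.344). None of the 4 was called in either step. From P1 to P7, 0.0% of 14660 genes were called (1663 at an unadjusted p under 0.05, 398 by DESeq2 and 0 by limma), and from P7 to P21 0.266%. The male mice of P7 and P21 shared a run, within which Plat was 152 and 97.6 CPM and Serpine2 17.4 and 14.8 CPM.

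The Early and Late labels of the Car4- capillaries split the P7 female into 162 and 44 cells. Her Early cells had 37.1 CPM of Serpine2 and 203 CPM of Plat, and her Late cells 0.0429 CPM, from a single read, and 135 CPM. At P21 nearly all Car4- cells were Late. The Late cells of the P21 mice had 17.5 and 8.88 CPM of Serpine2. At P21, Serpine2 in the female was 10.5 CPM in the 221 cells of the CD31 gate and 50.6 CPM in the 50 cells of the gate named mesench, while in the male it was 14.8 CPM in 184 cells and 0.0198 CPM in 83 cells, so the gates went opposite ways in these mice.

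In proliferative EC, the female and male of E18.5 had 25.004 and 3.02 CPM of Plat, those of P1 0 and 1.79 CPM and those of P7 71.8 and 68.9 CPM. The mice of P7 were highest and those of P1 lowest. By edgeR, Plat differed by -3.60 on the log2 scale from E18.5 to P1 (SE 1.37, adjusted p = 0.621) and by 5.92 from P1 to P7 (SE 1.52, adjusted p = 0.417), and DESeq2 and the fit with no filter on low counts called the latter. The mice of P1 had only 13 and 9 proliferative cells. For Plaur the levels were 110.5 and 247 CPM in the embryos, 93.0 and 104 CPM at P1 and 126 and 114 CPM at P7, with log2 changes of -0.79 (SE 0.577, adjusted p = 0.751) and 0.13 (SE 0.574, adjusted p = 0.955). None of the 4 was called in either step, where edgeR called 0.0% of 13102 genes. Unadjusted p-values were under 0.05 for 972 and 1287 genes, and DESeq2 called 506 and 620 and limma 0 in each step.

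In Car4+ capillaries, Plaur was 583 and 298 CPM at P1 and 920 and 853 CPM at P7 (log2 1.19, SE 0.526, adjusted p = 0.730 by edgeR). The mice of P7 lay above those of P1, and those of P21 spanned both. None of the 4 was called from P1 to P7 (0.0% of 12284 genes, beside 772 with an unadjusted p under 0.05, 259 called by DESeq2 and 0 by limma) or from P7 to P21 (0.00814%). In venous EC, Plaur went from 260.5 and 104 CPM at P1 to 46.8 and 85.8 CPM at P7 (-1.49, SE 0.654, adjusted p = 1.00). From the nonproliferative embryonic EC of E18.5 to the Car4- capillaries of P1, Serpine2 went from 26.4 and 40.4 CPM to 12.9 and 11.4 CPM (-1.38, SE 0.423, adjusted p = 0.297). Both embryonic mice were above both mice of P1, and 0.494% of genes were called in that comparison with none of the 4 among them. Of the list of 37 genes, none was called at any step between ages.

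**Figure D3:**
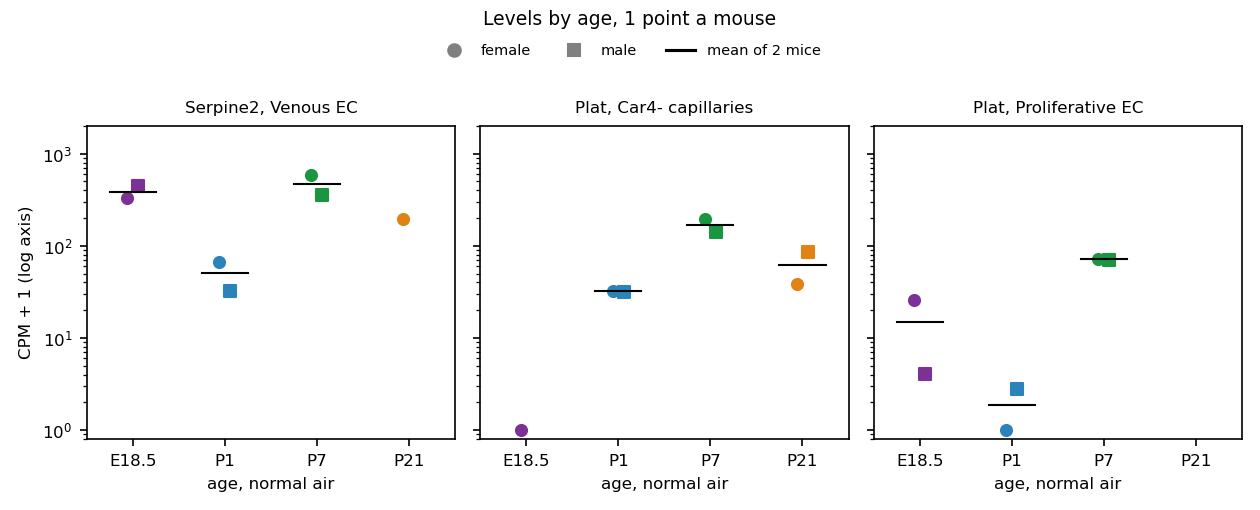
Levels by age in normal air (CPM + 1, log axis), with 1 point a mouse and the bar at the mean of 2 mice, for Serpine2 in venous EC and Plat in Car4- capillaries and proliferative EC. Serpine2 is lowest at P1 (66.5 and 31.7 CPM), and Plat is highest at P7 (194 and 141 CPM in Car4- capillaries).

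Hyperoxia was set against normal air at P7 in each subtype. In Car4- capillaries, the contrast on which the genes were chosen, Serpine2 was 357.5 and 326 CPM in the hyperoxia mice and 32.4 and 27.3 CPM in the mice of normal air. The means were 342 ± 22.4 CPM and 29.8 ± 3.61 CPM (SD, n = 2), a ratio of 11.5 (hyperoxia to normal air) and a fitted log2 difference of 3.49 (SE 0.421), with no overlap. This is given as a description, and so is the background, 2 of 14660 genes called in that contrast (0.0136%). Plau had 7.68 and 10.6 CPM under hyperoxia and 2.39 and 0.103 CPM in normal air. A Plau read was found in 18 of 153 and 17 of 132 cells under hyperoxia and in 3 of 206 and 2 of 116 in normal air. Under hyperoxia the 5 cells with the most Plau reads held 95.8% and 95.4% of them. Plat overlapped between the groups (208 and 88.7 against 194 and 141 CPM). Plaur was 247 and 209 CPM against 205 and 194 CPM, with a log2 difference of 0.16 (SE 0.427).

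Single cells show how the Serpine2 difference was made up in Car4- capillaries. A read was found in 17 of 206 cells of the normal-air female (8.25%, 95% Clopper-Pearson interval 4.88 to 12.9) and 15 of 116 of the male (12.9%, 7.42 to 20.4). Under hyperoxia it was found in 85 of 153 cells of the female (55.6%, 47.3 to 63.6) and 59 of 132 of the male (44.7%, 36.0 to 53.6). Both more cells had reads and those cells had more: the median among cells with a read was 264 and 101 CPM in normal air and 484 and 512 CPM under hyperoxia. After thinning each cell to 50000 reads the shares were 6.80% and 9.73% in normal air and 54.9% and 40.9% under hyperoxia. The 5 cells with the most Serpine2 reads held 29.2% and 35.1% of them under hyperoxia, and 72.2% and 87.7% in normal air. Within the hyperoxia mice, cells with a Serpine2 read had a median Cdkn1a level, a p53 target known for arresting the cell cycle, of 2394 and 3915 CPM, against 1371 and 1872 CPM in cells without one. The median depth of these cells was 524451 and 781638 reads with Serpine2 and 496946 and 646715 reads without. The Clopper-Pearson intervals hold the error of counting cells within a mouse and leave out the spread between mice. PCR copies of a molecule are read as separate reads, so the levels in a cell do not count molecules.

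**Figure D4:**
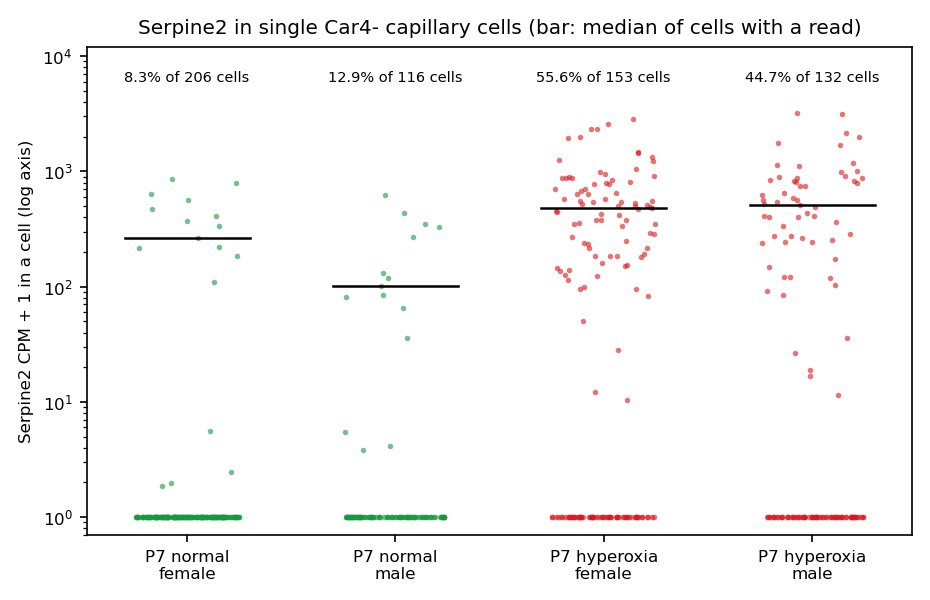
Serpine2 in each Car4- capillary cell at P7 (CPM + 1, log axis), by mouse, with the bar at the median of cells with a read and the share of such cells above. The shares are 8.25% and 12.9% in normal air and 55.6% and 44.7% under hyperoxia.

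In venous EC, proliferative EC and Car4+ capillaries Serpine2 was also higher in both hyperoxia mice, but no difference passed the test. Venous EC had 1206 and 967 CPM against 579 and 353 CPM (log2 1.21, SE 0.522, edgeR adjusted p = 1.00, unadjusted p = 0.0387). Proliferative EC had 499 and 428 CPM against 46.3 and 233 CPM (1.75, SE 0.684, adjusted p = 1.00). Car4+ capillaries had 35.4 and 61.2 CPM against 0.0480 and 0.776 CPM, where the lower values rest on 8 reads in all (6.57, SE 2.60, adjusted p = 0.731). The hyperoxia mice lay above the mice of normal air in each of these 3 subtypes. They are the same 4 mice as in the Car4- contrast that chose Serpine2, so the subtypes are not separate repeats of it. The share of all genes without overlap was not counted. Within the run that the male mice shared, Serpine2 was 326 against 17.4 CPM in Car4- capillaries, 61.2 against 2.02 CPM in Car4+ capillaries, 428 against 211 CPM in proliferative EC and 967 against 353 CPM in venous EC. The summed level of 7 fibroblast markers moved with the venous difference, at 101.4 and 91.9 CPM under hyperoxia and 0.386 and 39.6 CPM in normal air, with Dcn at 0 in all 4 mice, and their part in the result was not tested. In the other 3 subtypes the summed fibroblast markers overlapped between the groups.

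Markers of other vessels also moved with Serpine2 under hyperoxia, and their part in the result was not tested. The 5 lymphatic markers summed to 4253 and 3930 CPM under hyperoxia and 913 and 911 CPM in normal air in Car4- capillaries, with no overlap. They were 2699 and 2297 against 593 and 1342 CPM in Car4+ capillaries and 3044 and 2743 against 1208 and 1041 CPM in proliferative EC, again with no overlap. Most of each sum was Lyve1, a hyaluronan receptor known from lymphatic vessels, at 4023 and 3633 against 825 and 732 CPM in Car4- capillaries. Flt4, a receptor for lymphatic growth factors, was 228 and 291 against 85.9 and 179 CPM there. Prox1, the transcription factor that defines lymphatic identity, was at most 0.0411 CPM in the Car4- sums of P7. Ccl21a was at 0 in all 4, while Mmrn1 was 1.54 and 6.73 against 1.45 and 0.274 CPM. In proliferative EC, Prox1 was 0 and 5.93 against 0.0329 and 0 CPM. In Car4+ capillaries, the hyperoxia female had 0.669 CPM of Prox1 and 7.44 CPM of Ccl21a. The hyperoxia male and both normal-air mice had 0 of either there. Mmrn1 overlapped between the groups in Car4+ capillaries and was higher under hyperoxia in proliferative EC. Every sum of lymphatic EC had at least 191 CPM of Prox1. The 4 arterial markers were lower under hyperoxia in Car4- capillaries (548 and 744 against 1442 and 1583 CPM). In Car4+ capillaries they were higher (36.7 and 8.02 against 0.0961 and 0 CPM), and so were the venous markers (10.5 and 11.2 against 0.0721 and 3.10 CPM) and those of pericytes and smooth muscle (35.9 and 10.4 against 7.98 and 9.70 CPM). The venous markers were 114 and 136 against 93.2 and 104 CPM in Car4- capillaries, and in venous EC they were lower (3489 and 3378 against 3878 and 4267 CPM). Markers of division in venous EC (56.7 and 92.0 against 8.37 and 43.6 CPM) and immune markers in proliferative EC (19.7 and 9.49 against 6.46 and 5.59 CPM) were higher in both hyperoxia mice.

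**Figure D5:**
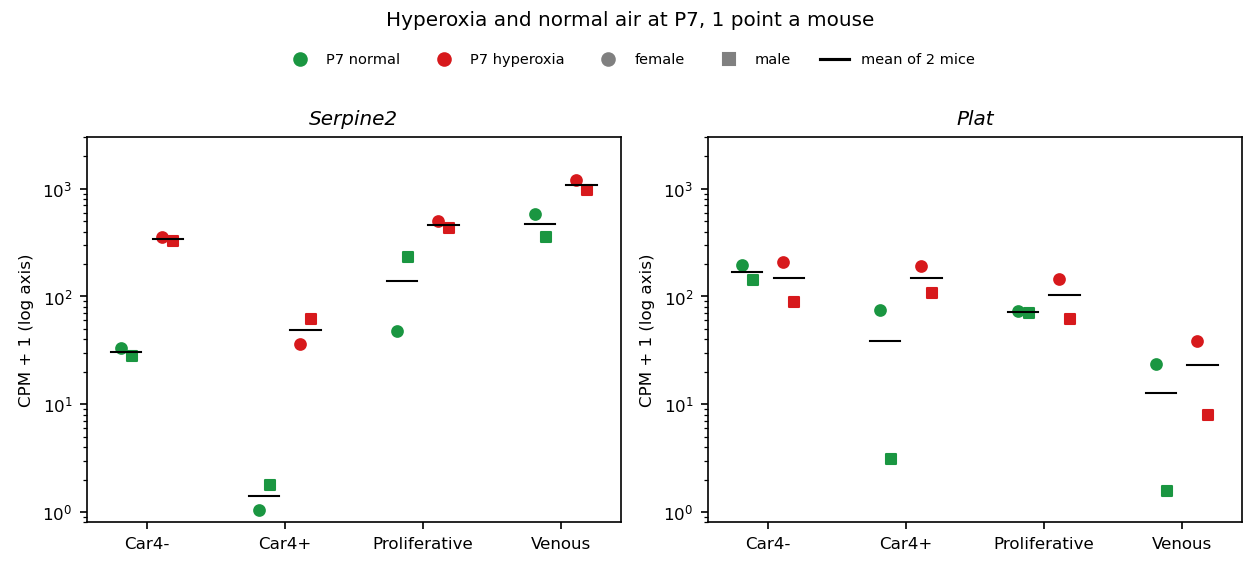
Serpine2 and Plat (CPM + 1, log axis) at P7 under hyperoxia and in normal air, with 1 point a mouse and the bar at the mean of 2 mice. Serpine2 points of hyperoxia lie above those of normal air in all 4 subtypes, which come from the same 4 mice, while Plat points overlap in all but Car4+ capillaries.

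The subtypes with fewer cells gave levels without a fit. Arterial EC I had 88.0 and 156 CPM of Serpine2 under hyperoxia against 63.2 and 0 CPM, the last from 4 cells. Arterial EC II went the other way, at 0 and 32.2 CPM against 150 and 53.2 CPM, with 1 to 6 cells a mouse. Lymphatic EC overlapped (675 and 748 against 761 and 497 CPM). Plaur was higher under hyperoxia in arterial EC I (380 and 141 against 104 and 110 CPM) and II (69.1 and 171 against 0 and 40.4 CPM). In lymphatic EC it was lower, at 121 and 32.2 CPM against 1252 CPM, from 1 cell, and 174 CPM. Plat was lower in arterial EC II (197 and 481 against 1951 and 1057 CPM). Cells labelled proliferative venous EC were found under hyperoxia alone, with 1727 and 986 CPM and a Serpine2 read in every cell.

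The differences between the subtypes in the log2 effect of hyperoxia on Serpine2 include the Car4- contrast that chose it and are descriptions. Against Car4- capillaries, the effect was smaller by 2.23 in venous EC (-2.23, SE 0.321) and differed by -1.36 in proliferative EC (SE 0.778) and by 3.98 in Car4+ capillaries (SE 1.37). Among the 4 subtypes fitted for hyperoxia, venous EC thus had the highest level and the smallest ratio, 2.33 against 11.5 in Car4- capillaries. In each of these 3 comparisons of effects edgeR called 0.0%, beside 438 to 483 with an unadjusted p under 0.05, 100 to 211 called by DESeq2 and 0 or 1 by limma.

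Plat, Plau and Plaur were set against normal air in the same way. Plau in proliferative EC was 2.40 and 2.64 CPM under hyperoxia against 0.148 and 0.894 CPM, where the lower values rest on 17 reads in all. In Car4+ capillaries Plat was 191 and 106 CPM against 73.3 and 2.07 CPM, with no overlap (log2 1.87, SE 1.27, edgeR adjusted p = 0.809), and a read was found in 57.9% and 37.8% of cells against 21.4% and 8.33%. The arterial markers given above moved with it. Plat overlapped between the groups in proliferative EC (145 and 60.6 against 71.8 and 68.9 CPM) and in venous EC (37.5 and 6.98 against 22.6 and 0.558 CPM). Plaur in venous EC was 127 and 146 CPM against 46.8 and 85.8 CPM, with no overlap (1.07, SE 0.647, adjusted p = 1.00). Plau had no read in the 44 venous cells of normal air and 1753 reads under hyperoxia, where 19 of 53 cells had one. The hyperoxia mice had 12.3 and 56.6 CPM of Plau, and the 5 cells with the most Plau reads held 95.3% and 96.6% of them. With no read in normal air, no ratio is given. The fibroblast markers given above moved with Plau and Plaur in venous EC too, and the summed lymphatic markers overlapped there (2277 and 1825 against 1960 and 1688 CPM). None of the 4 genes was called in Car4+ capillaries (0.0%, beside 757 with an unadjusted p under 0.05, 268 called by DESeq2 and 0 by limma). None was called in proliferative EC (0.0%, with 339, 114 and 0) or in venous EC (0.0%, with 331, 93 and 0). Of the genes of the list other than the 4, none was called under hyperoxia in the 4 subtypes fitted. In Car4- capillaries the clearance receptor Igf2r had 247 and 447 CPM under hyperoxia and 91.4 and 125 CPM in normal air, and Anxa2 1796 and 2103 against 1335 and 1421 CPM, with no overlap in either. Pdgfd, a growth factor that plasmin or urokinase can activate, had 56.8 and 63.2 against 46.5 and 42.8 CPM. S100a10 (402 and 453 against 331 and 382 CPM) did not overlap either. These gaps are descriptions, as the share of all genes without overlap was not counted. With 2 mice against 2, an exact permutation test cannot go below 0.333. Thbd, Itgb1, Mmp14, Serpinb6a, Plgrkt, Eno1 and F2r also reached 50 CPM there, and their differences lay between -0.60 and 0.23 on the log2 scale. The median over its 24 other tested genes in Car4- capillaries was 0.06, beside -0.01 over all genes.

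The 4 genes did not follow each other closely over the 48 sums of a subtype in a mouse, which share libraries and depth. The sums include those of Car4- capillaries at P7 on which Serpine2 was chosen, so the correlations are descriptions. Described by Pearson's r on log2(CPM + 1), Serpine2 stood at -0.04 with Plat, 0.44 with Plau and -0.08 with Plaur, and Plat at 0.27 with Plaur. Of 9144 genes with a mean of at least 10 CPM, those most like Serpine2 were Nmt2 (0.75), Prss23 (0.74), Limch1 (0.74), Chst12 (0.73) and Chn2 (0.72). Those most like Plat were Armcx3 (0.70), Tnfrsf12a (0.67), Med17 (0.67), Aldh2 (0.66) and Crybg3 (0.65). By Spearman's rho, 3 of the 5 for Serpine2 and 2 of the 5 for Plat were again among the top 5.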

How the data were processed

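RNA was read from single plate-sorted cells without molecular identifiers. The deposited values are whole-number read counts per gene and cell, made by the authors with STAR 2.5.2b and HTSeq 0.10, per the submitters' processing notes; the notes list the build GRCh38, a human build, for these mouse samples, so the build behind the counts is unsure. Subtype labels are the authors'. The genes and lists were chosen with earlier results of these data known.

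Counts were summed per mouse and subtype (at least 8 cells) and tested with edgeR 4.0.16 (quasi-likelihood, TMM, filterByExpr) in R 4.3.3, with Benjamini-Hochberg adjustment over all genes and a threshold of 0.05. Ages and hyperoxia were fitted over the groups of a subtype, and subtypes with the mouse as a term. With 2 mice against 2, an exact permutation test cannot go below 0.333. DESeq2 1.42.0, limma 3.58.1 on log2(mean CPM over cells + 1), RLE, no filter, the CD31 gate alone, thinning to 50000 reads (11 shallower cells left out), the sex as a block and each mouse left out were alternatives. The fits were tested on simulated data with the same fixed dispersion for every gene. There the fit of hyperoxia in Car4- capillaries called 2.04% of genes changed by 2 on the log2 scale and 15% of those changed by 3. The fit of Car4+ against Car4- capillaries called 75% and 99%. As the dispersion was not estimated from these sums, the shares do not measure the power in these data. Named were the 4 genes, list genes called or with at least 50 CPM in a Car4- sum of P7, and the 5 genes most like Serpine2 or Plat. By a rule set after the values were seen, 38 of 84 fitted log2 changes are printed: mean of at least 10 CPM in a group, over 3 reads in each, and groups that do not overlap (for subtypes, at most 1 mouse against the others). Intervals are Clopper-Pearson at 95%. A gene of the list is counted in its totals and not reported here. Doublets were not called.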

Additional observations from a re-analysis of the deposited data

How the results depend on the processing

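Of the alternative values of the log2 changes printed for the 4 genes, 519 kept their direction and their side of the threshold, 32 passed it in addition, 12 no longer did and 9 turned their sign; the cause was not tested. The tally includes Serpine2 under hyperoxia in Car4- capillaries, the contrast that chose it, and the comparisons of effects with that contrast. For these it is a description, and no test is drawn from it. DESeq2 called Plat from P1 to P7 in Car4- capillaries (2.32) and proliferative EC (5.90), and Serpine2 under hyperoxia in Car4+ capillaries (6.54), in venous EC from E18.5 to P1 (-3.19) and P1 to P7 (3.27), and from embryonic EC to Car4- capillaries (-1.38). Against Car4- capillaries it called Plaur in Car4+ capillaries (2.18), Plat in venous EC (-4.09), and Serpine2 (3.30) and Plau (9.44) in lymphatic EC. With no filter, Plat in proliferative EC from P1 to P7 (5.94) and Serpine2 in both venous steps (-3.04 and 3.25) were called. With thinned cells, Serpine2 from E18.5 to P1 in venous EC (-3.07), Plaur in Car4+ capillaries (1.95), and Serpine2 (3.65) and Plau (7.71) in lymphatic EC were called, and Plat in proliferative EC turned to -0.98. With limma, Serpine2 (4.06) and Plau (5.60) in lymphatic EC were called, and in proliferative EC Plat turned to -1.21 and Plaur to 0.66. With the compared pair alone, Plaur in Car4+ capillaries (1.89), and Serpine2 (2.95) and Plau (10.29) in lymphatic EC were called, Serpine2 in venous EC lost its call (3.73), and Plat in proliferative EC turned to -2.04. The smaller effect of hyperoxia on Serpine2 in venous EC than in Car4- capillaries was -2.22 with DESeq2 and -2.58 with thinned cells.

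Leaving out each mouse in turn gave Serpine2 under hyperoxia in Car4- capillaries 3.32 to 3.66, and in venous EC -3.62 to -2.74 from E18.5 to P1 and 2.72 to 3.72 from P1 to P7. In proliferative EC it gave Plat -12.17 to -1.46 from E18.5 to P1 and 5.01 to 14.50 from P1 to P7, and Plaur -0.077 to 0.45 in the latter step. Between subtypes it gave Plaur in Car4+ capillaries 1.92 to 2.30, Serpine2 in venous EC 3.55 to 4.54, Plat and Plaur in proliferative EC -0.77 to 1.22 and -0.70 to 0.026, and Plau in lymphatic EC 6.41 to 10.38. The lowest and highest Plat values in proliferative EC came without the male of P1, which leaves a group with no Plat read, and are no bound.

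Counts of genes called moved by more than 1.5 times in 154 alternatives and by less in 153; DESeq2 called 180 genes under hyperoxia in Car4- capillaries, 1285 in venous EC and 1552 in Car4+ capillaries against Car4- capillaries. With the sex of the mouse as a replicate block, Serpine2 under hyperoxia was 3.50 in Car4- capillaries and 1.25 in venous EC, and no printed log2 change of the 4 genes changed its call. The female minus male differences in log CPM correlated over genes at -0.0185 to 0.077 between pairs of groups of a subtype. Over all genes tested, little of the sex difference was thus shared between groups. With 2 mice a group and a shallow male of P7, levels of a few reads limit Plau and the Car4+ values of Serpine2.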
